A study of Mus musculus with 4 samples.

Results

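The genes described here encode the machinery that takes a newly made protein into the endoplasmic reticulum (ER), cuts off its signal peptide, attaches N-linked glycans and passes it on for export. The list holds 38 genes, chosen by name, of the 24421 gene columns that each of the 4 count tables carries. They were compared between mouse CD138+ B220- cells, a surface profile of plasma cells, in 3 groups. VQ bone marrow (VQ_BM, 2 libraries) and VQ lymph node (VQ_LN, 1 library) are labelled multiple myeloma. Their cells are donor-derived, were taken from recipient mice and carry V{kappa}*MYC together with Nras LSL Q61R/+ and IgG1-Cre. WT bone marrow (WT_BM, 1 library) is wild type and, per the design text, age-matched. All are on the C57/BL6 background. In this genotype MYC is driven by kappa light chain regulatory sequence, and the mutant Nras allele is silent until Cre, expressed from the IgG1 constant region locus, removes a stop cassette. The titles of all 3 VQ libraries carry the same tag, VQ-D2, and do not say what D2 stands for. The labels do not say whether the VQ_BM pair came from separate animals, or whether marrow and lymph node came from the same animal. Each p below rests on how far the VQ_BM pair differs over all genes together, with little weight on the gene's own difference. That spread may reflect technique rather than animals.

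Ribosomes that start on a secreted protein are caught by the signal recognition particle (SRP) and docked at its receptor, and the chain is then threaded through the Sec61 channel. The TRAP complex and other partners help it through, signal peptidase trims it, and oligosaccharyltransferase (OST) attaches a preassembled glycan. Plasma cells are known for a large ER and a high output of immunoglobulin, so they lean heavily on this route. Jchain encodes the joining chain of polymeric antibodies and is itself a cargo of the route.

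Cells were chosen by the share of their UMIs (counted transcripts, each read at its 3′ end) that came from Jchain. VQ cells were kept under 5% and WT cells at 5% or above, so any gene that goes with Jchain from cell to cell is affected by the choice. It left 226 of 245 cells in VQ_BM replicate 1, 170 of 188 in replicate 2, 185 of 185 in VQ_LN and 106 of 163 in WT_BM, 687 of 781 cells in all. The kept cells held 1045005, 444437, 803752 and 204002 UMIs in that order of libraries, and no pair of libraries shared a cell barcode. Between 0 and 5 cells per library had a Jchain share of 4 to 6%. Of 12 plasma cell markers, 12, 11, 10 and 12 had a UMI in VQ_BM replicate 1, replicate 2, VQ_LN and WT_BM. Per 1000000 non-Jchain UMIs, each of the 11 markers other than Jchain was lower in each VQ library than in WT_BM, 8 of them at under 50% of the WT_BM level. Sdc1, which encodes CD138, stood at 720 and 652 in the VQ_BM pair and 576 in VQ_LN, against 1089 in WT_BM. Mzb1, which encodes an ER protein that helps antibody assembly, stood at 45.2 and 52.0 in the VQ_BM pair and 1362 in VQ_LN, against 5976 in WT_BM. Tnfrsf17, which encodes the survival receptor BCMA, stood at 52.9 and 81.5 in the VQ_BM pair and 45 in VQ_LN, against 542 in WT_BM. Derl3, which acts in ER-associated degradation, stood at 401 and 462 in the VQ_BM pair and 624 in VQ_LN, against 1816 in WT_BM. Tnfrsf13b was at 0 in VQ_BM replicate 2, and Tnfrsf13b and Prg2 were at 0 in VQ_LN. Tnfrsf13b had only 1 UMI in WT_BM, so its lower level rests on that UMI. Prg2 had 264 and 2 UMIs in the VQ_BM pair, against 388 in WT_BM. The part of these lower marker levels in the results below was not tested. The 8 neutrophil markers summed to 1033 and 1286 UMIs in the VQ_BM pair, 1 in VQ_LN and 13 in WT_BM. The 7 T cell markers summed to 111, 39, 19 and 16 UMIs, and the 6 macrophage markers to 43, 15, 1 and 0. The 7 B cell precursor markers summed to 1 UMI in each VQ library and 32 in WT_BM, and the 5 mature B cell markers to 3, 2, 0 and 21. Erythroid markers gave 4 UMIs in VQ_BM replicate 1 and 0 elsewhere. Leaving out cells with UMIs of at least 2 genes of such a list gave 5 higher and 13 lower members in VQ_BM, against 4 and 15 in all kept cells. The share over all genes tested was not taken for that setting.

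Counts were summed per library without Jchain and are given as CPM, UMIs per 1000000 scaled by TMM. As a whole the 38 genes held 3.19% and 3.44% of the non-Jchain UMIs in the VQ_BM pair and 3.43% in VQ_LN, against 3.70% in WT_BM. With all cells of each library the order turned, at 3.18% and 3.43% in the VQ_BM pair and 3.43% in VQ_LN, against 2.57% in WT_BM. The summed share in WT_BM thus depended on which cells were kept. Serp1 and Ssr2 together made up 34.8% and 35.6% of the members' UMIs in the VQ_BM pair and 32.6% in VQ_LN, against 16.7% in WT_BM. In such sums, fewer cells that express a gene and less RNA per cell cannot be told apart.

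Of the 38 genes, 36 had enough UMIs to be tested among 8414 genes by edgeR's quasi-likelihood test. Srp54a, the SRP subunit that binds the signal sequence, had 0 UMIs in every library. Its near-identical copies Srp54b and Srp54c were also at 0. Sec61g had 13, 6 and 8 UMIs in the VQ libraries, against 1 in WT_BM, and has a near-identical copy, Gm10177. Counts at these 4 loci depend on how reads that match several copies were handled, which is not given in the sources used here.

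**Figure D1:**
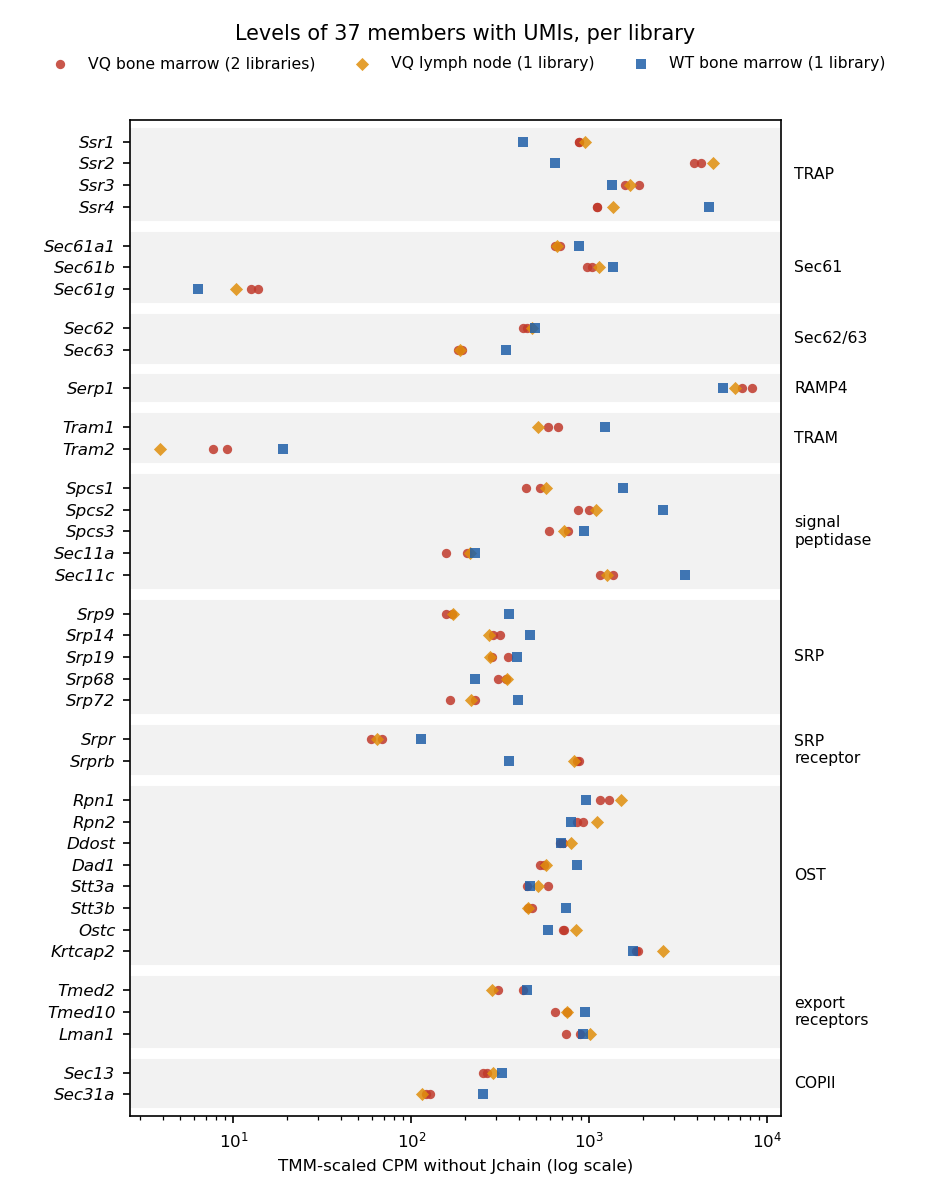
Level of each of the 37 members with a UMI, in TMM-scaled CPM on a log axis, grouped by complex. Red circles are the 2 VQ bone marrow libraries, orange diamonds VQ lymph node and blue squares WT bone marrow; the Ssr2 points of the VQ libraries lie far right of the WT point and the Ssr4 points far left of it.

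In VQ_BM against WT_BM, 4 members rose and 15 fell at an adjusted p under 0.05 (Benjamini-Hochberg over all genes tested), and 17 did not pass. With all cells of each library the counts were 12 higher and 6 lower, and against only the WT_BM cells without MHC class II UMIs they were 6 and 5. Over all genes tested, 17.0% were called higher and 12.3% lower with the kept cells, and no such share was taken for the alternatives. The median log2 fold change of the 36 members was -0.38, and that of all genes tested was 0.19. The members' median was 0.088 with all cells and 0.049 against the WT_BM cells without MHC class II UMIs, so its sign depended on the cells kept. The members that rose were Ssr2, Srprb, Ssr1 and Serp1. The falls were spread over signal peptidase (4 of 5), SRP (3 of 5 tested), OST (2 of 8) and single genes of other complexes. In the SRP receptor 0 genes fell. Within the VQ_BM pair the members differed by a median of 0.14 on the log2 scale, and by at most 0.48, for Tmed2. The fit has 1 residual degree of freedom against 278 prior ones, so the spread of a gene is taken almost wholly from all genes together. A small p does not measure that gene's own spread between libraries. The single WT_BM and VQ_LN libraries are taken to have the same spread as the VQ_BM pair. With a preset biological coefficient of variation of 0.4 in place of the estimated 0.0926, 1 member rose and 1 fell, Ssr2 and Ssr4.

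**Figure D2:**
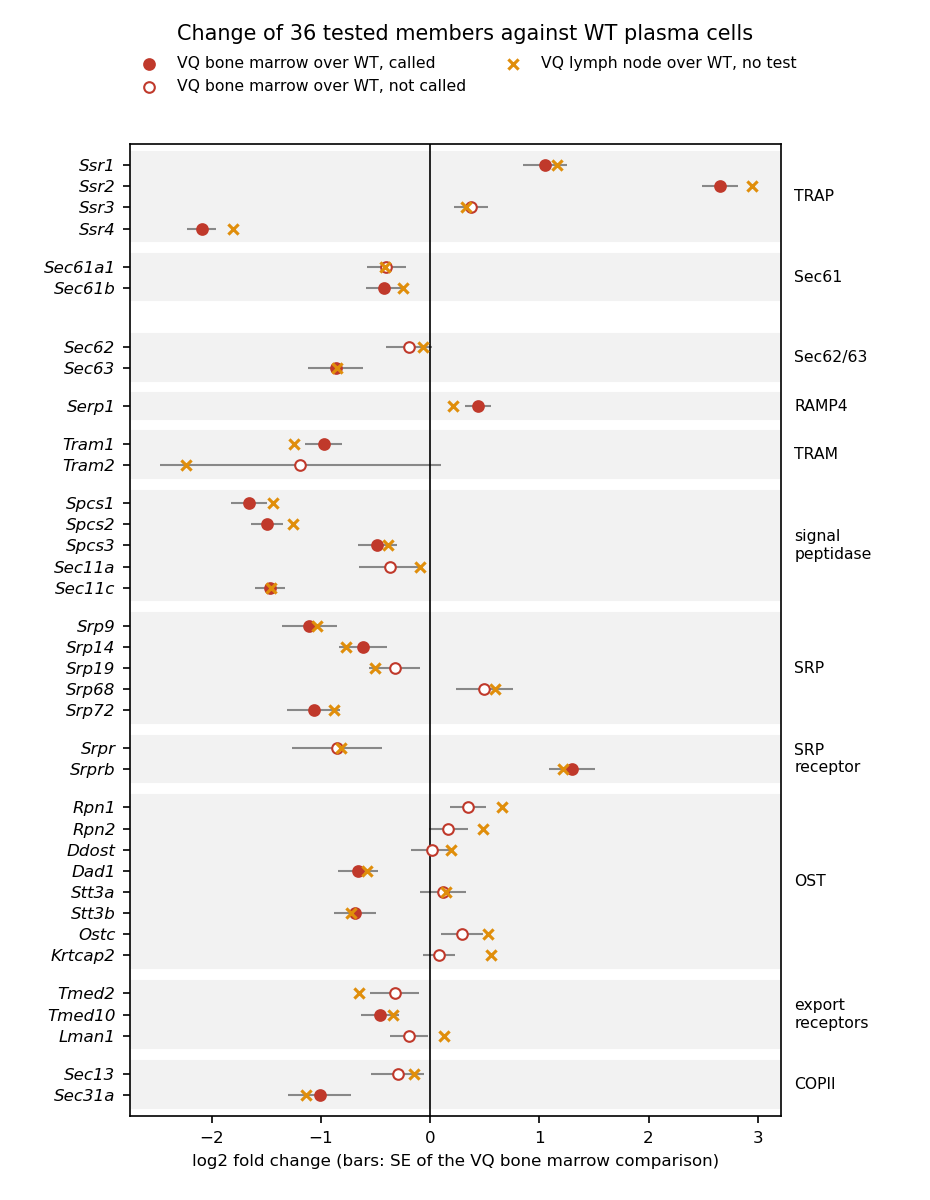
Log2 fold change against WT bone marrow of the 36 tested members, grouped by complex. Red points are VQ bone marrow with SE bars, filled where the adjusted p was under 0.05; orange crosses are VQ lymph node, which has no test. The largest rise is Ssr2 at 2.65 and the largest fall Ssr4 at -2.09.

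The largest rise and the largest fall among the members both lay in a single complex. TRAP, the translocon-associated protein complex, has 4 subunits, Ssr1 to Ssr4, which sit beside Sec61 and help some signal sequences to open the channel. Ssr2 (chr3:88575876-88588419, plus strand) stood at 3864 and 4229 CPM in the VQ_BM pair and 4939 CPM in VQ_LN, against 642 CPM in WT_BM. Ssr4 (chrX:73787028-73790830, plus strand) stood at 1108 and 1110 CPM in the VQ_BM pair and 1353 CPM in VQ_LN, against 4720 CPM in WT_BM. Each VQ library was far above the kept WT_BM cells for Ssr2 and far below them for Ssr4. Ssr2 rose by 2.65 ± 0.16 on the log2 scale (SE, 6.30-fold, adjusted p = 5.8e-40), and Ssr4 fell by 2.09 ± 0.13 (4.26-fold, adjusted p = 3.8e-38). Both calls held under each alternative that gave a test, with log2 values of 2.17 to 3.13 for Ssr2 and -2.16 to -1.40 for Ssr4.

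The other pair of TRAP subunits moved less. Ssr1, the subunit with an acidic lumenal end, stood at 878 and 870 CPM in the VQ_BM pair and 946 CPM in VQ_LN, against 422 CPM in WT_BM, and rose by 1.05 ± 0.20 in VQ_BM (adjusted p = 5.5e-06). Its call was lost without cells with cycle genes, at 500 UMIs per cell and with both preset spreads. Ssr3 stood at 1591 and 1902 CPM in the VQ_BM pair and 1685 CPM in VQ_LN, against 1341 CPM in WT_BM, with a log2 value of 0.38 that did not pass (adjusted p = 0.051). Ssr3 lies close to that threshold, and 5 alternatives put it past it.

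The bases upstream of these genes are shown because their transcripts moved apart although their proteins work in 1 complex. They come from RefSeq promoters on GRCm38.p6 and are printed 5′ to 3′ on the gene's strand, trimmed to bases that touch no annotated exon. Capitals mark the letters CCAAT, the letters CCACG and the letters CACGTG on either strand. The first of these and the second are the outer parts of the ER stress response element, and the last is the E-box bound by MYC and its relatives. In Ssr1 a CCACG at -73 to -69 from the start site overlaps a CACGTG at -72 to -67, and a second CCACG lies at -26 to -22. In Ssr3 a CCACG lies at -190 to -186 and the letters CCAAT at -151 to -147 and -111 to -107. In Ssr4 none was found.
Ssr1, chr13:37994218-37994458, minus strand: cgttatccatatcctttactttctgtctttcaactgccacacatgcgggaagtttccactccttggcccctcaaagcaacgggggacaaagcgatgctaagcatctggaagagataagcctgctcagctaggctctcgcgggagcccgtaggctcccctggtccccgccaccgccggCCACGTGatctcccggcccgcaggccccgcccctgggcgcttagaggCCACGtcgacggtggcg
Ssr3, chr3:65392624-65392803, minus strand: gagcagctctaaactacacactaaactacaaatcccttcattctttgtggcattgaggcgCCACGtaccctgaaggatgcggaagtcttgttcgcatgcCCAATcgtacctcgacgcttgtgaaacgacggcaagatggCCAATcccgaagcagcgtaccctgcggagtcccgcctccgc
Ssr4, chrX:73786898-73787022, plus strand: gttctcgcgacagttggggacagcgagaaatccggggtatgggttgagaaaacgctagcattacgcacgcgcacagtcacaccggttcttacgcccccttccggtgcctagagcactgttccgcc

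Over the whole promoter windows (250 bases before to 50 after the start), 28 of the 38 members had an entry. Ssr2, Sec61a1, Tram1, Spcs3, Sec11c, Srp19, Srp68, Ostc, Tmed2 and Lman1 had none. CACGTG was found in 3 of the 28 (10.7%; Ssr1, Sec62 and Tmed10) and in 12.7% of 6558 tested genes with an entry. CCAAT was found in 16 (57.1%, against 43.5%) and CCACG in 20 (71.4%, against 55.0%). The full ER stress response element (ERSE) was found in 0 members, against 0.213% of tested genes. The related element ERSE-II was found in 1 member, Krtcap2, against 0.122%. The letters TGACGTGG, the core of the unfolded protein response element, were found in 0, against 1.17%. Both strands were searched, the counts of the short motifs include any match inside a longer motif, and a match is a description only.

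The ratio of Ssr2 to Ssr4 within a library does not depend on scaling. VQ_BM replicate 1 had 4024 UMIs of Ssr2 and 1154 of Ssr4, a ratio of 3.49 (95% counting interval 3.27 to 3.73). Replicate 2 had 1848 and 485, a ratio of 3.81 (3.45 to 4.22), and VQ_LN had 3843 and 1053, a ratio of 3.65 (3.41 to 3.91). WT_BM had 102 UMIs of Ssr2 and 750 of Ssr4, a ratio of 0.136 (0.109 to 0.167). Ssr2 was thus the more abundant transcript of the pair in each VQ library and Ssr4 in WT_BM, a difference of 25.6-fold and 28.0-fold for the VQ_BM pair and 26.8-fold for VQ_LN. Intervals cover counting error only.

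Single cells gave the same order. Among cells with a UMI of either gene, Ssr2 exceeded Ssr4 in 195 of 210 cells (92.9%, exact binomial interval 88.5 to 95.9) of VQ_BM replicate 1, 140 of 154 (90.9%, 85.2 to 94.9) of replicate 2 and 175 of 183 (95.6%, 91.6 to 98.1) of VQ_LN. In WT_BM it did so in 5 of 101 cells (4.95%, 1.63 to 11.2). Cells of a library are not replicates, and these shares describe the 4 libraries.

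The VQ_BM libraries also held cells with a Jchain share of 5% or more, 19 in replicate 1 and 18 in replicate 2. Median UMIs were 4700 and 2646 in the Jchain-low cells, against 1064 and 699.5 in these Jchain-high cells, and the labels do not say whether the Jchain-high cells are donor cells. They had 5 UMIs of Ssr2 and 40 of Ssr4 in replicate 1, and 4 and 18 in replicate 2. Ssr2 exceeded Ssr4 in 0 of 17 such cells (upper exact limit 19.5%) and in 1 of 12 (8.33%, 0.211 to 38.5). In both libraries the Jchain-high cells thus had the order seen in WT_BM, inside the same library as the Jchain-low cells with the opposite order.
The 57 WT_BM cells under 5% Jchain had 35 UMIs of Ssr2 and 147 of Ssr4, a ratio of 0.238 (0.160 to 0.346), against 0.136 in the Jchain-high WT_BM cells. Ssr2 exceeded Ssr4 in 23.8% of the cells with a UMI of either gene, against 4.95%. Only 1.22% of their non-Jchain UMIs came from the 38 genes.

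**Figure D3:**
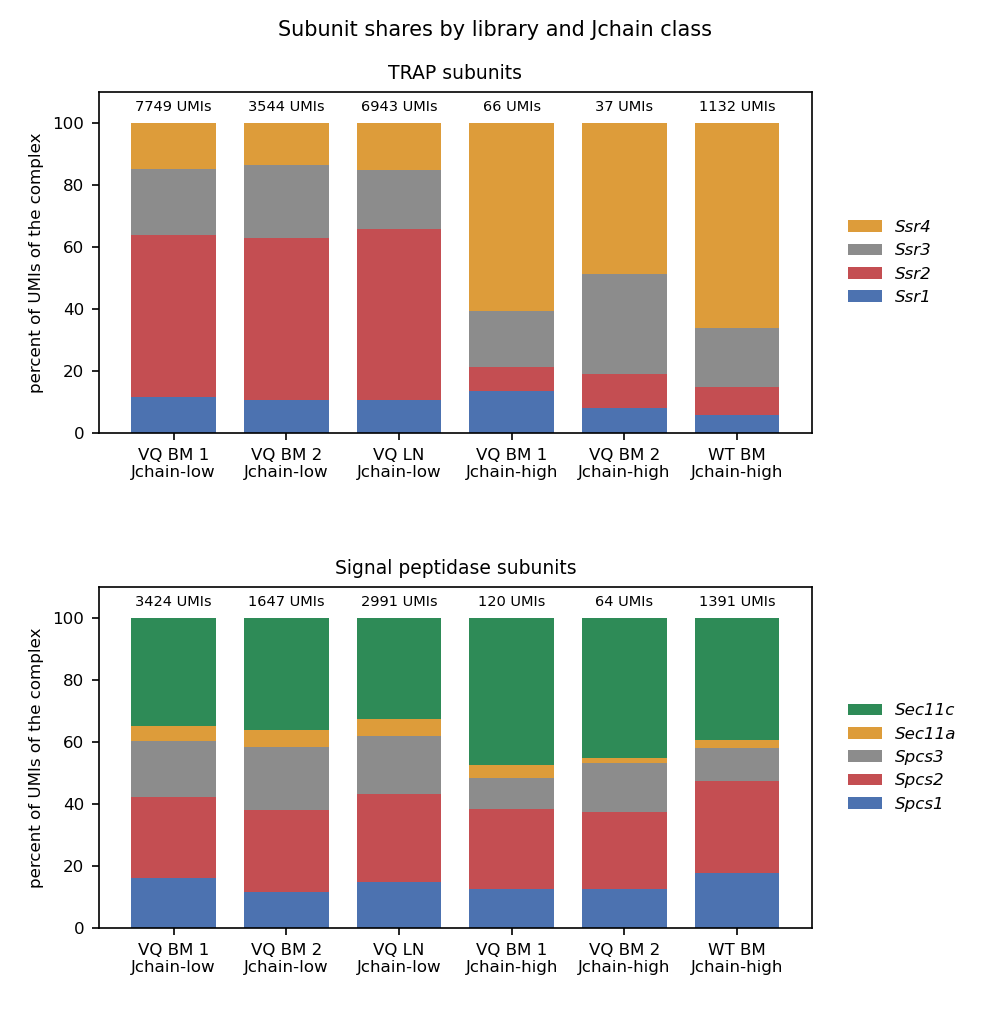
Share of each subunit in the summed UMIs of TRAP (top) and signal peptidase (bottom), by library and Jchain class, with the number of UMIs above each bar. Ssr2 fills 51.9% to 55.4% of TRAP UMIs in Jchain-low VQ cells, against 9.01% in WT Jchain-high cells, where Ssr4 fills 66.3%; the Jchain-high cells of VQ bone marrow have 7.58% and 10.8% Ssr2.

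Over the 38 members, the level in Jchain-low over Jchain-high cells had a counting interval above 1 for 6 members and below 1 for 6 in replicate 1, and for 6 and 4 in replicate 2. Over all genes tested, 1.55% lay above 1 and 4.88% below in replicate 1, and 1.05% and 3.98% in replicate 2. How often an interval excludes 1 depends on a gene's UMIs, and the median gene tested has far fewer UMIs than the median member. The interval was above 1 in both libraries for Ssr2, Serp1, Srprb and Krtcap2, and below 1 in both for Sec11c. Ssr2 was 13.2-fold higher (5.66 to 40.8) in replicate 1 and 11.1-fold higher (4.32 to 40.7) in replicate 2 in the Jchain-low cells. Sec11c was at 0.34 (0.26 to 0.46) and 0.49 (0.34 to 0.74) of its level in Jchain-high cells. Ssr4, at 0.47 (0.35 to 0.67), was below 1 in replicate 1, and in replicate 2 its interval held 1.

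Of the 2 tested channel genes, Sec61b fell and Sec61a1 did not pass. Sec61a1, the pore-forming subunit, stood at 643 and 687 CPM in the VQ_BM pair and 658 CPM in VQ_LN, against 875 CPM in WT_BM, with a log2 value of -0.40 (adjusted p = 0.080). Sec61b, a small subunit beside the pore, stood at 1037 and 973 CPM in the VQ_BM pair and 1139 CPM in VQ_LN, against 1353 CPM in WT_BM, and fell by 0.43 ± 0.16 in VQ_BM (adjusted p = 0.030). The Sec61b call was lost in 7 alternatives, DESeq2 among them, and the gene has 3 near-identical copies. The UMI ratio of Sec61a1 to Sec61b was 0.62 and 0.71 in the VQ_BM pair and 0.58 in VQ_LN, against 0.65 in WT_BM, and all 4 counting intervals overlapped.

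Partners of the channel went in both directions. Serp1, also called RAMP4, a small ER stress-responsive protein that binds Sec61, was the most abundant member, at 7190 and 8157 CPM in the VQ_BM pair and 6547 CPM in VQ_LN, against 5664 CPM in WT_BM. It rose by 0.44 ± 0.12 in VQ_BM (adjusted p = 0.0020), and without cells with cycle genes its log2 value was -0.10. The Serp1 call was also lost with DESeq2, with both preset spreads and at 500 UMIs per cell. Tram1, which contacts chains as they enter the membrane, stood at 584 and 668 CPM in the VQ_BM pair and 514 CPM in VQ_LN, against 1221 CPM in WT_BM, and fell by 0.97 ± 0.17 (adjusted p = 5.9e-07). All 3 VQ libraries lay well below the kept WT_BM cells. Its relative Tram2 had 8, 4 and 3 UMIs in the VQ libraries, against 3 in WT_BM.

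Sec62 and Sec63 assist the channel, above all for short precursors and with the lumenal chaperone BiP. Sec62 stood at 445 and 423 CPM in the VQ_BM pair and 474 CPM in VQ_LN, against 497 CPM in WT_BM, and did not pass. Sec63 stood at 183 and 192 CPM in the VQ_BM pair and 188 CPM in VQ_LN, against 340 CPM in WT_BM, and fell by 0.86 ± 0.25 (adjusted p = 0.0044). That value was 0.36 when WT_BM was limited to its 37 cells without MHC class II UMIs. The Sec63 call was also lost with DESeq2, both preset spreads, all cells of each library and 500 UMIs per cell. Within WT_BM, Sec63 was 2.25-fold higher (1.05 to 5.53) in the 69 cells with such UMIs, which had 46 Sec63 UMIs, against 8 in the 37 cells without.

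Signal peptidase was lower in VQ_BM for 4 of its 5 subunits, where 12.3% of all genes tested were called lower and 17.0% higher. Its median log2 value was -1.46, against 0.19 for all genes tested. Sec11c, a catalytic subunit, stood at 1145 and 1364 CPM in the VQ_BM pair and 1253 CPM in VQ_LN, against 3443 CPM in WT_BM. Spcs2 stood at 864 and 996 CPM in the VQ_BM pair and 1092 CPM in VQ_LN, against 2599 CPM in WT_BM. Spcs1 stood at 528 and 442 CPM in the VQ_BM pair and 571 CPM in VQ_LN, against 1548 CPM in WT_BM. Spcs1 and Spcs2 are accessory subunits that do not cut, and for all 3 genes no VQ library came near the WT_BM level. Sec11c fell by 1.46 ± 0.14 (2.76-fold, adjusted p = 1.9e-20), Spcs2 by 1.49 ± 0.14 (2.81-fold, adjusted p = 3.3e-19) and Spcs1 by 1.66 ± 0.17 (3.16-fold, adjusted p = 2.5e-18). The calls of these 3 were lost only with the preset coefficient of variation of 0.4. Spcs2 has a near-identical copy, Spcs2-ps.

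The remaining subunits moved less. Spcs3, the accessory subunit needed for the enzyme's activity in yeast and mammals, stood at 595 and 762 CPM in the VQ_BM pair and 716 CPM in VQ_LN, against 938 CPM in WT_BM. It fell by 0.48 ± 0.18 (adjusted p = 0.028), but its log2 value was 0.68 against the WT_BM cells without MHC class II UMIs and 0.12 with all cells of each library. The Spcs3 call was lost in 11 alternatives, DESeq2 among them. Within WT_BM, Spcs3 was 2.15-fold higher (1.37 to 3.51) in cells with MHC class II UMIs. Sec11a, the other catalytic subunit, stood at 156 and 206 CPM in the VQ_BM pair and 212 CPM in VQ_LN, against 227 CPM in WT_BM, and did not pass; its 3′ end overlaps Nmb on the same strand. The Sec11a to Sec11c ratio was 2.07-fold and 2.29-fold higher in the VQ_BM pair and 2.57-fold higher in VQ_LN than in WT_BM. Sec11c still outnumbered Sec11a in each library, with 1192, 596 and 975 UMIs, against 162, 90 and 165, in the VQ libraries and 547 against 36 in WT_BM.

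SRP and its receptor catch ribosomes at the start of the route. Srp9 and Srp14 form the part that slows elongation. Srp9 stood at 169 and 156 CPM in the VQ_BM pair and 172 CPM in VQ_LN, against 352 CPM in WT_BM, and fell by 1.10 ± 0.25 in VQ_BM (adjusted p = 1.9e-04). Srp14 fell by 0.61 ± 0.22 (adjusted p = 0.025). Srp72, which with Srp68 forms the protein scaffold of the particle, stood at 165 and 227 CPM in the VQ_BM pair and 216 CPM in VQ_LN, against 397 CPM in WT_BM, and fell by 1.06 ± 0.24 (adjusted p = 1.8e-04). Srp68 stood at 305 and 339 CPM in the VQ_BM pair and 343 CPM in VQ_LN, against 227 CPM in WT_BM, with a log2 value of 0.50 that did not pass (adjusted p = 0.15). The 2 scaffold partners thus lay on opposite sides of WT_BM. Srp19, which helps the particle assemble, had a log2 value of -0.32 and did not pass. The calls of Srp9, Srp14 and Srp72 were lost in 6, 8 and 5 alternatives. Each was lost with DESeq2, and with only the WT_BM cells without MHC class II UMIs.

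The SRP receptor has a soluble GTPase, Srpr, held to the membrane by Srprb. Srprb (chr9:103188032-103202137, minus strand) stood at 857 and 879 CPM in the VQ_BM pair and 817 CPM in VQ_LN, against 352 CPM in WT_BM, and rose by 1.30 ± 0.21 (2.46-fold, adjusted p = 5.9e-08). Srpr stood at 59.5 and 68.7 CPM in the VQ_BM pair and 64.3 CPM in VQ_LN, against 113 CPM in WT_BM, with a log2 value of -0.85 that did not pass (adjusted p = 0.11). Srprb outnumbered Srpr in each library, by 892 to 62, 384 to 30 and 636 to 50 UMIs in the VQ libraries, against 56 to 18 in WT_BM. The ratio was 4.62-fold and 4.11-fold higher in the VQ_BM pair and 4.09-fold higher in VQ_LN than in WT_BM. Without cells with cycle genes the log2 value of Srprb was 0.73 (adjusted p = 0.33).

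Most OST genes did not pass. Of the 8 measured members, 0 rose, 2 fell and 6 did not pass in VQ_BM, and the median log2 value was 0.10. Not passing was about as common over all genes tested, at 5948 of 8414, where 17.0% were called higher and 12.3% lower. Stt3a, the catalytic subunit that works on chains as they are made, stood at 446 and 584 CPM in the VQ_BM pair and 517 CPM in VQ_LN, against 466 CPM in WT_BM. Stt3b, the catalytic subunit that acts on sites that were skipped, stood at 449 and 478 CPM in the VQ_BM pair and 450 CPM in VQ_LN, against 743 CPM in WT_BM, and fell by 0.68 ± 0.19 (adjusted p = 0.0027). The Stt3a to Stt3b ratio was 0.99 and 1.22 in the VQ_BM pair and 1.15 in VQ_LN, against 0.63 in WT_BM. The counting interval of WT_BM (0.46 to 0.85) lay below those of VQ_BM replicate 2 (1.01 to 1.47) and VQ_LN (0.99 to 1.33), and just below that of replicate 1 (0.87 to 1.13).

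Among the shared OST subunits, Dad1 stood at 527 and 556 CPM in the VQ_BM pair and 572 CPM in VQ_LN, against 856 CPM in WT_BM, and fell by 0.66 ± 0.18 (adjusted p = 0.0023). Rpn1, Rpn2 and Ddost had log2 values of 0.34, 0.17 and 0.02 and did not pass. The calls of Dad1 and Stt3b were each lost in 7 alternatives, among them DESeq2, all cells of each library and 500 UMIs per cell. Ostc and Krtcap2, which tie the Stt3a form to the channel, had log2 values of 0.29 and 0.08 and did not pass. The Krtcap2 to Ostc ratio was 2.59 and 2.58 in the VQ_BM pair and 3.05 in VQ_LN, against 2.99 (2.36 to 3.82) in WT_BM, so it lay within counting error of WT_BM in each library.

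**Figure D4:**
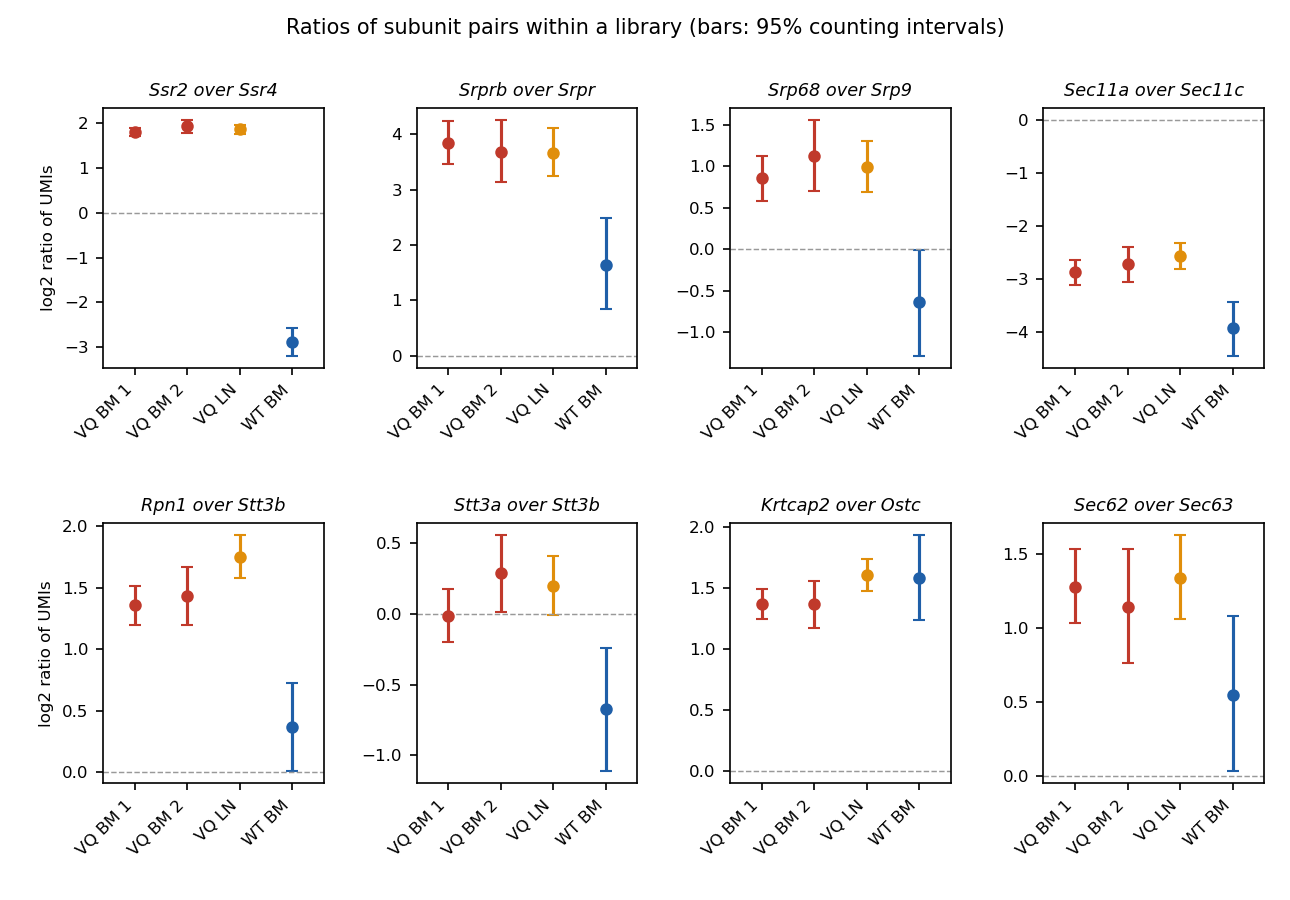
Log2 ratio of UMIs for 8 pairs of subunits of the same complex, per library, with 95% counting intervals; each panel has its own vertical axis, and the dashed line marks equal counts. The 3 VQ libraries lie together and apart from WT bone marrow for Ssr2 over Ssr4 (ratios of 3.49, 3.81 and 3.65, against 0.136), while Krtcap2 over Ostc overlaps in all libraries.

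Of the 5 ER export genes, 2 fell and 0 rose in VQ_BM, where 12.3% of all genes tested were called lower and 17.0% higher. Sec31a, part of the outer coat of COPII vesicles, stood at 127 and 121 CPM in the VQ_BM pair and 114 CPM in VQ_LN, against 252 CPM in WT_BM, and fell by 1.01 ± 0.29 (adjusted p = 0.0029). Its partner Sec13 had a log2 value of -0.30 and did not pass. Tmed10, a cargo receptor of the p24 family with a near-identical copy, Tmed10-ps, fell by 0.46 ± 0.18 (adjusted p = 0.036), but its log2 value was 0.10 with all cells of each library. Its partner Tmed2 (-0.32) and the glycoprotein cargo receptor Lman1 (-0.19) did not pass. The calls of Sec31a and Tmed10 were lost in 6 and 10 alternatives, DESeq2 among them for both.

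Cycling and depth moved with these groups. Only 24 of 226 and 33 of 170 kept VQ_BM cells and 28 of 185 VQ_LN cells had UMIs of fewer than 2 of 40 cycle genes, against 85 of 106 WT_BM cells. Limited to those cells, 1 member was called higher and 8 lower in VQ_BM. In the pair they held 38456 of 1045005 and 25078 of 444437 UMIs, so they were shallower than the kept cells as a whole. Results without cells with cycle genes thus mix cycling, depth and few cells, and these were not separated. Median UMIs per kept cell were 4700 and 2646 in the VQ_BM pair and 3978 in VQ_LN, against 1998.5 in WT_BM. With each cell thinned to 500 UMIs, 2 members were called higher and 6 lower. No share over all genes tested was taken for either setting, so the drop in calls is not particular to the members. The part of cycling and depth in the other calls was not tested.

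In VQ_LN against VQ_BM, 1 of the 36 members passed. Over all genes tested, 1.76% were called higher and 1.24% lower. Krtcap2 (chr3:89245966-89249906, plus strand) stood at 2577 CPM in VQ_LN, against 1870 and 1831 CPM in the VQ_BM pair, and rose by 0.48 ± 0.13 (1.39-fold, adjusted p = 0.013). VQ_LN is a single library, and the call was lost with DESeq2 and in 6 other alternatives, the Jchain limits of 2% and 10% among them. The median log2 value of the 36 members was 0.10, against -0.01 for all genes tested. Ssr2 (0.29, adjusted p = 0.23) and Ssr4 (0.29, adjusted p = 0.32) did not pass. Neutrophil markers differed between these libraries, and the call held without cells with markers of another type (0.45, adjusted p = 0.028).

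VQ_LN against WT_BM has 1 library on each side and therefore no test, and it shares the WT_BM library with the comparison of VQ_BM. Past 2-fold, 3 members were higher and 8 lower, where 29.5% of all genes tested were past 2-fold higher and 19.2% lower. Ssr2 was 7.69-fold higher (counting interval 6.32 to 9.46), Srprb 2.32-fold (1.76 to 3.11) and Ssr1 2.24-fold (1.74 to 2.93). Ssr4 was 3.49-fold lower (3.17 to 3.83), Sec11c 2.75-fold (2.47 to 3.05), Spcs1 2.71-fold (2.31 to 3.18) and Spcs2 2.38-fold (2.11 to 2.68). Tram1, Sec31a and Srp9 were 2.37-fold, 2.20-fold and 2.05-fold lower. The eighth, Tram2, rests on 3 UMIs in each library. The side by side values in VQ_BM were 2.65 for Ssr2, 1.30 for Srprb, 1.05 for Ssr1 and -2.09 for Ssr4 on the log2 scale.

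Other genes of the secretory route were read from 6 lists. Of 107 tested genes, 13 (12.1%) were called higher in VQ_BM and 25 (23.4%) lower, with a median log2 value of -0.14. Over all genes tested, 17.0% were called higher and 12.3% lower. The counts of the lists were 22 and 10 with all cells of each library, 0 and 7 without cells with cycle genes, and 1 and 7 with DESeq2. No share over all genes tested was taken for these alternatives. Among further OST, SRP and Sec61 genes, 0 of 5 rose and 3 fell. These were Mlec (-1.15), which binds newly attached glycans, Magt1 (223, 110 and 226 UMIs in VQ_BM replicates 1 and 2 and VQ_LN, against 73 in WT_BM), an oxidoreductase subunit of the Stt3b form, and Ost4 (-0.74), a small OST subunit. The Magt1 call was lost in 7 alternatives and that of Mlec in 3. The genes of the ER membrane complex, the GET route and multipass insertion, which place membrane proteins rather than secreted ones, had 7 of 21 higher and 1 lower. Nomo1 had 273, 122 and 297 UMIs in VQ_BM replicates 1 and 2 and VQ_LN, against 8 in WT_BM (log2 value 2.41, adjusted p = 6.5e-08). Emc1, the largest subunit of the ER membrane complex, had 168, 70 and 114 UMIs in those VQ libraries, against 5 in WT_BM (2.35, adjusted p = 3.3e-05). Tmco1, an ER membrane protein of the multipass translocon, fell (-0.67), and its call was lost in 7 alternatives. Neither Emc1 nor Nomo1 passed without cells with cycle genes.

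The dolichol pathway, which builds the glycan that OST transfers, had 4 of 32 higher (12.5%) and 5 lower (15.6%). Both shares were near those over all genes tested (17.0% and 12.3%). Alg10b (2.02, from 2 UMIs in WT_BM) and Nus1 (0.79), part of the enzyme that makes the dolichol chain, rose, and Gmppa (-2.05) and Srd5a3 (-1.76), the dolichol reductase, fell. Without cells with cycle genes the log2 value of Nus1 was -0.05. The calls of Alg10b and Nus1 were each lost in 7 alternatives, DESeq2 among them. That of Srd5a3 was lost in 6 and that of Gmppa in 1. Glycan trimming had 1 of 13 higher (7.69%) and 5 lower (38.5%). There Man1a2 (0.87) rose while Fut8 (-1.93), which adds core fucose, and Man1a (-1.52), a mannosidase like Man1a2, fell. The Man1a2 call was lost in 7 alternatives, against 3 for Man1a and 1 for Fut8. Fut8 had 191, 56 and 112 UMIs in VQ_BM replicates 1 and 2 and VQ_LN, against 98 in WT_BM from a far smaller total.

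Further COPII genes had 0 of 13 higher and 5 lower (38.5%), where 17.0% of all genes tested were called higher and 12.3% lower. Among the falls were Sec16a (-1.56), a scaffold of ER exit sites, and Sar1b (-0.96), a GTPase that starts the coat. The Sar1b call was lost in 7 alternatives and that of Sec16a in 3. COPI and other cargo receptors had 1 of 23 higher (4.35%) and 6 lower (26.1%). Tmed1 (3.05) rose from 2 UMIs in WT_BM, and Kdelr3 (-2.41), a receptor that returns ER proteins, and Copa (-1.51), a COPI coat subunit, fell. The calls of Tmed1, Kdelr3 and Copa were lost in 2, 4 and 2 alternatives. In VQ_LN against VQ_BM, 3 genes of the lists (2.80%) were called, all higher in VQ_LN, where 1.76% of all genes tested were called higher. They were Kdelr3 (2.77, with 44 UMIs against 9 and 3), Tmed1 (0.82) and Tmem258 (0.63), an OST subunit. In that comparison the Tmed1 call was lost in 5 alternatives and the Kdelr3 call in 1.

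**Figure D5:**
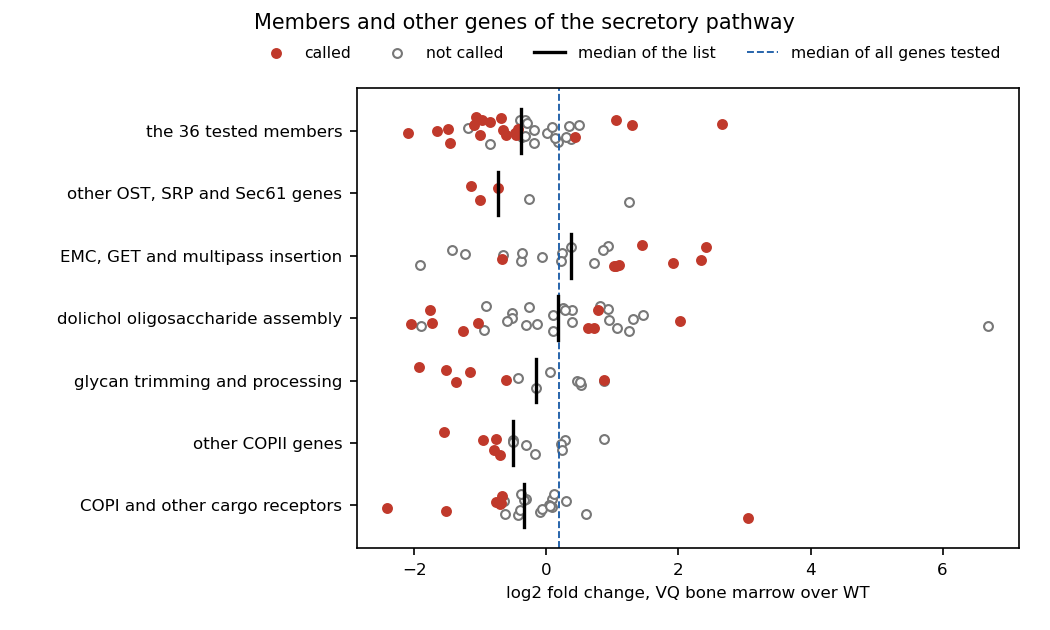
Log2 fold change of VQ bone marrow over WT bone marrow for the tested members and for 6 lists of other secretory route genes; filled red points were called, black bars are list medians and the dashed line is the median of all genes tested (0.19). The isolated point at 6.69 is Alg13, which has 0 UMIs in WT bone marrow and did not pass, so its fitted value depends on the prior count.

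Regulators of the route had 1 of 8 higher (12.5%) and 3 lower (37.5%), where 17.0% of all genes tested were called higher and 12.3% lower. Xbp1, a transcription factor that drives ER expansion in plasma cells, stood at 4211 and 4728 CPM in the VQ_BM pair and 3676 CPM in VQ_LN, against 7080 CPM in WT_BM, and fell by 0.67 ± 0.12 (adjusted p = 8.9e-07). With all cells of each library its log2 value was 0.04. Prdm1, which encodes Blimp-1, fell by 2.93 ± 0.27 (70, 20 and 60 UMIs in VQ_BM replicates 1 and 2 and VQ_LN, against 73 in WT_BM; adjusted p = 1.5e-21), and Irf4, a factor needed for plasma cell fate, fell by 0.85 ± 0.20 (adjusted p = 2.2e-04). The Irf4 call was lost in 6 alternatives, DESeq2 among them, and with all cells of each library its log2 value was -0.085. Myc rose by 4.95 ± 0.31 (1320, 646 and 1113 UMIs in those VQ libraries, against 7 in WT_BM; adjusted p = 1.9e-39). The VQ genotype carries a MYC transgene, and how its transcripts were counted is not given in the sources used here. Atf6 (0.40), Atf6b (0.57) and Creb3l2 (0.65), factors cut free from the ER or Golgi membrane, and Ern1 (-1.95, from 5, 2, 10 and 3 UMIs), the sensor that splices Xbp1, did not pass.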

How the data were processed

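Single cells were isolated on the Bio-Rad ddSEQ and made into SureCell 3′ libraries, per the labels. The deposited tables hold the authors' raw UMI counts per gene and cell past a knee filter, per the file names, with no scaling. Per the submitters' processing notes, reads were placed on mm10; the aligner and counting rules are not given in the sources used here. Cells were kept by a Jchain limit of 5% of UMIs, Jchain was removed and counts were summed per library. No doublet caller was run, and whether doublets were removed before deposit is not given in the sources used here. The 4 sums entered 1 fit of 3 group means in edgeR 4.0.16 (R 4.3.3; TMM, filterByExpr, glmQLFit, glmQLFTest), with Benjamini-Hochberg adjustment over 8414 genes and calls at an adjusted p under 0.05. The SE is the absolute log2 fold change over the square root of F. DESeq2 1.42.0 was an alternative. Counts of the VQ_BM pair differed beyond sampling noise (chi-square of 1.57 per degree of freedom, 9020 genes) and they shared 0 barcodes, so they are not the same library given 2 times. Different cells of 1 animal can differ as much, so this does not bear on whether the animals were separate. VQ_LN against WT_BM has exact conditional 95% counting intervals only. The script was tested on simulated counts.

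Members and lists were chosen with earlier results of these data known. All 38 members and every regulator are named. From each of the other lists, at most 2 called genes with the largest rise and 2 with the largest fall in VQ_BM against WT_BM are named. Ost4 is named as well, outside that rule. The Krtcap2 call and the list genes called in VQ_LN were named after their values were seen. Camlg and Hm13 have no column. Gene coordinates are from GENCODE vM21 (GRCm38), in which all 38 members were found.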

Additional observations from a re-analysis of the deposited data

How the results depend on the processing

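In VQ_BM against WT_BM the main analysis called 4 members higher and 15 lower. The share over all genes tested was taken for that analysis only, so the counts of the alternatives have no such share beside them. A preset biological coefficient of variation gave 2 and 6 (at 0.2) or 1 and 1 (at 0.4), all cells of each library 12 and 6, cells without cycle genes 1 and 8, cells thinned to 500 UMIs 2 and 6, WT_BM cells without MHC class II UMIs 6 and 5, and DESeq2 3 and 5. The other pathway lists, with 13 higher and 25 lower, gave 4 and 10 (coefficient 0.2), 0 and 0 (0.4), 22 and 10 (all cells), 0 and 7 (no cycle genes), 5 and 8 (thinned), 7 and 6 (no MHC class II) and 1 and 7 (DESeq2), and 8 and 7 higher genes with Jchain limits of 2% and 10%. The members' median of -0.38 became 0.088 with all cells, -0.80 without cycle genes and 0.049 without MHC class II. The log2 change of the Ssr2 to Ssr4 ratio became 4.53 with all cells, 4.26 without cycle genes, 4.64 without MHC class II and 4.38 thinned. The single member higher in VQ_LN against VQ_BM became 0 with DESeq2, both preset coefficients, Jchain limits of 2% and 10%, and thinned cells. Past 2-fold, VQ_LN against WT_BM gave 5 higher and 2 lower with all cells and 5 lower without MHC class II, in place of 3 and 8. The direction turned without cycle genes for Serp1 (-0.10) and Nus1 (-0.055), without MHC class II for Sec63 (0.36) and Spcs3 (0.68), and with all cells for Spcs3 (0.12), Tmed10 (0.10) and Xbp1 (0.039). The cause was not tested.

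Leaving out either VQ_BM library leaves no residual degrees of freedom and so no calls. The members' median then ranged from -0.47 to -0.34, the Ssr2 to Ssr4 change from 4.68 to 4.81, and the VQ_LN counts past 2-fold were 3 higher and 7 lower. No paired analysis was possible because only VQ_BM has replicate numbers. WT_BM, with 204002 UMIs, sets the precision of each comparison with it, and 3 members had under 10 UMIs there.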

Other observations

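The 57 WT_BM cells under 5% Jchain belong to no comparison above. They held 136251 UMIs, with a median of 2046 per cell, and 1649 UMIs of the 38 genes. Of the 42 with a UMI of Ssr2 or Ssr4, 10 had more Ssr2 (23.8%, exact binomial interval 12.1 to 39.5). Among the 106 Jchain-high WT_BM cells, the Ssr2 to Ssr4 ratio was 0.133 (0.103 to 0.169) in the 69 with MHC class II UMIs and 0.146 (0.094 to 0.218) in the 37 without.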
